A study of Mus musculus with 460 samples.

Results

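The genes described here are the 6 that encode the receptors and ligands of the platelet-derived growth factor (PDGF) system in the mouse: the receptors Pdgfra and Pdgfrb and the ligands Pdgfa, Pdgfb, Pdgfc and Pdgfd. They were taken by gene symbol from a table of 48440 genes, and each symbol named 1 row. The table holds single-cell RNA-seq counts of molecular barcodes, so that copies of 1 captured transcript are meant to be counted once, in 460 cells. All cells belong to 1 group: they carry the labels CAFs (cancer-associated fibroblasts) and tCAFs, come from mice of 1 strain, and have lung adenocarcinoma as their disease state, so that every cell of the group shares that background. The labels name no animal, culture, age or sex, no untreated or normal-lung cells and no other allele or agent, and they do not spell out the prefix of tCAFs. The 460 cells were therefore read as 1 sample: the values below describe these cells, no p-value was made from them, and all intervals are 95% intervals that cover counting error only.

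PDGF ligands are secreted dimers that bring receptor chains together at the cell surface and switch on their tyrosine kinase activity. PDGF-A and PDGF-C act mainly through receptor alpha, PDGF-B binds both receptor chains, and PDGF-D acts mainly through receptor beta. In the lung, epithelial PDGF-A acts on Pdgfra-positive mesenchymal cells that form alveolar walls, and endothelial PDGF-B recruits Pdgfrb-positive pericytes, the mural cells that wrap capillaries. In tumours Pdgfrb marks many cancer-associated fibroblasts and also pericytes, whereas Pdgfra is used mostly as a fibroblast gene. To place the 6 genes between these cell types, 4 anchor genes were used: Mcam, an adhesion molecule of mural cells, and Notch3, a Notch receptor of mural cells, on one side, and Dcn, a small proteoglycan of fibroblasts, and Col1a1, a chain of type I collagen, on the other.

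Windows around the annotated starts of Pdgfra and Pdgfa, from RefSeq on GRCm38.p6, are shown because these genes sit on the same chromosome, encode a receptor and its main ligand, and had opposite patterns over the cells. Each window runs from 250 bases before to 50 bases after a start and is written 5′ to 3′ on the gene's strand. Capitals mark matches, on either strand, to GGGCGG, known as a GC box, and to CACCC, a motif of the Krüppel-like factor family. The Pdgfra window is chr5:75152001-75152300 (plus), and the Pdgfa windows are chr5:138994232-138994531 and chr5:138994895-138995194 (minus).
Pdgfra: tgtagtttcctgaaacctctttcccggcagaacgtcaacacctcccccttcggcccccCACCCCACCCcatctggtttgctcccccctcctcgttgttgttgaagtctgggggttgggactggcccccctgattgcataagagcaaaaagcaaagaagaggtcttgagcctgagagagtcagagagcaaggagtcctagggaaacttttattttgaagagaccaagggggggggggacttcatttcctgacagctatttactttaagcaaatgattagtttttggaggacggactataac
Pdgfa, nearer the gene's end: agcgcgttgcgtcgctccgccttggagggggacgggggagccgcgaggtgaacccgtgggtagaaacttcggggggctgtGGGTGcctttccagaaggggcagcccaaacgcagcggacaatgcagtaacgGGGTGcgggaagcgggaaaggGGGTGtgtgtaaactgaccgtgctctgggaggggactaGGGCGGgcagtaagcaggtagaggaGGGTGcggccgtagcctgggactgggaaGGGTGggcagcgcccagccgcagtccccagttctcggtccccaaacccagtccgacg
Pdgfa, farther from the gene's end: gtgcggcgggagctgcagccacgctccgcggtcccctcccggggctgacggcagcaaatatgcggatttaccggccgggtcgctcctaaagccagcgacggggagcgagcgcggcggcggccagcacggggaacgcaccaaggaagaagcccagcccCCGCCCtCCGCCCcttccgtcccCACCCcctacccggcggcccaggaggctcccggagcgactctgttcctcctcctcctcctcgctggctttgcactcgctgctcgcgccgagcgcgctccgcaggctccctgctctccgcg

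The Pdgfra window had 51% G and C and 5 CpG sites, close to the median of 32851 RefSeq mouse promoter windows of the same length (52.7% and 7 sites). The Pdgfa windows had 67% and 73.3% G and C with 24 and 37 CpG sites, so that the ligand's windows were the richer in CpG. GGGCGG occurred once in the Pdgfa window nearer the gene's end, 2 times in the other and not in the Pdgfra window, and 35.7% of all windows held it. CACCC occurred 5 times, once and 2 times in these windows, in the same order, and 57.5% of all windows held it. None of the windows held TATAAA on either strand, which is the core of the TATA box and occurred in 13.6% of all windows. The same was true of CCAAT, which 37.4% of all windows held. Letters of the kind bound by the Notch effector RBPJ, searched as GTGGGAA, were likewise not in these windows and occurred in 6.38% of all. No 2 matches to different motifs overlapped in the printed windows. These are matches to letters and were not set against binding data.

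Cells held between 25029 and 240496 counts, with a median of 88701, and a median of 7704 genes had a count. Because the share of cells with a count depends on depth, shares are also given after each cell was thinned at random to 56586 counts, which left out the 46 shallower cells. The label of the cells was set against marker genes. Col1a1 was counted in all 460 cells and Dcn in 99.3% of them, and the 8 endothelial and 9 immune markers were mostly at 0, with a median summed level of 14.9 CPM and 77.8 CPM (CPM, counts per 1000000 counts of the cell). The 10 fibroblast markers had a median summed level of 6602 CPM, with 4 of them at a median of 0. The 8 epithelial markers had a median summed level of 551 CPM and up to 18501 CPM in a cell, with 6 of them at a median of 0. Mcam was likewise counted in all cells, and the 10 pericyte markers reached a median summed level of 2270 CPM, so that the label CAFs covered cells with many pericyte transcripts. The 6 smooth muscle markers had a median summed level of 817 CPM, with 3 of them at a median of 0. Transcripts of at least 2 endothelial genes or at least 2 immune genes other than Lyz2 were present in 45% of the cells, and results that depend on those cells are given with and without them. The remaining 55% are called cells without transcripts of other lineages below. Only endothelial and immune genes defined that set, so that cells with epithelial or mesothelial transcripts could stay in it. Epcam, Ptprc and Cdh5, defining genes of epithelial, blood and endothelial cells, had a count in 5.43%, 11.3% and 11.5% of the cells, and these shares serve as the background for the sparse ligands below.

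On the mm10 build (GRCm38) with the GENCODE vM21 annotation, Pdgfra lies at chr5:75152292-75198215 on the plus strand and Pdgfa at chr5:138976014-138997370 on the minus strand. Pdgfrb lies at chr18:61045150-61085061 (plus), Pdgfb at chr15:79995874-80014977 (minus), Pdgfc at chr3:81036416-81214040 (plus) and Pdgfd at chr9:6168584-6378850 (plus). The counts are per gene, so that exons and isoforms cannot be told apart. Whether counting used the strand is not given in the sources used here. An antisense gene over Pdgfa, 6330403L08Rik, held 776 counts of its own against 3013 of Pdgfa, and no gene overlapping Pdgfra, Pdgfb, Pdgfc or Pdgfd for which the table has a row held more than 14.

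Both receptors were counted in every cell, and over all cells their levels were far above those of the ligands. Pdgfra was not abundant in every cell: its lowest count was 1, and 95.7% of the cells had 5 or more. Pdgfrb made up 2748 CPM of all counts (interval 2733 to 2764) and Pdgfra 1202 CPM (1192 to 1212). Divided by exon length, these were 502 CPM per kilobase for Pdgfrb and 119.9 CPM per kilobase for Pdgfra, out of 16922 genes with at least 1 CPM. Pdgfrb was the 36th highest of these genes and Pdgfra lay above 98.3% of them. How far barcode counts scale with length is not given in the sources used here, and across these genes CPM correlated with exon length at 0.47. By CPM alone, an alternative chosen after seeing the data, Pdgfrb was the 12th and Pdgfra the 63rd highest. Pdgfa had 22.7 CPM per kilobase, above the median of 4.51 CPM per kilobase of those genes. Pdgfc, Pdgfd and Pdgfb had 2.12, 1.79 and 1.21 CPM per kilobase and lay below that median, as they did in CPM, where the median was 15.04. The order Pdgfrb, Pdgfra and Pdgfa was separated by far more than counting error, while the lowest values of the 6, those of Pdgfb, Pdgfd and Pdgfc, rest on few counts, 240 in all for Pdgfd.

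**Figure D1:**
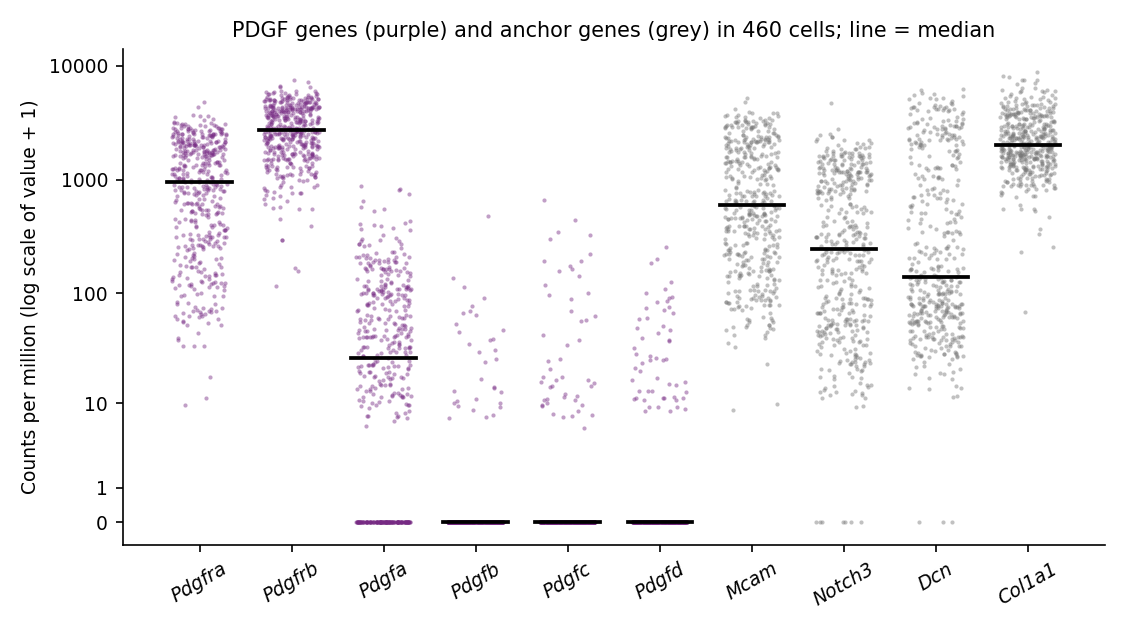
Level of the 6 PDGF genes (purple) and the 4 anchor genes (grey) in each of 460 cells, in CPM on a logarithmic scale of the value plus 1; each point is a cell and the black line is the median. Both receptors are above 0 in every cell, with medians of 960 CPM for Pdgfra and 2709 CPM for Pdgfrb, whereas the medians of Pdgfb, Pdgfc and Pdgfd are at 0.

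Over single cells, Pdgfra had a lowest value of 9.70 CPM, a median of 960 CPM and a highest value of 4814 CPM, and Pdgfrb had 115.9, 2709 and 7487 CPM. The alpha receptor had the wider spread as a ratio of values, and the beta receptor the wider one in CPM: the middle 50% of the cells ran from 288.4 to 1945 CPM of Pdgfra and from 1760 to 4105 CPM of Pdgfrb. Counts of both varied far more than sampling alone allows, since the ratio of variance to mean in thinned counts, which is about 1 for sampling alone, was 45.01 for Pdgfra and 38.1 for Pdgfrb. A count of Pdgfra was present in all 460 cells and, after thinning, in 99.5% of the thinned cells. The table holds no cell type known to lack Pdgfra, so that a low Pdgfra count inside a cell and transcripts taken up from the medium cannot be told apart. Of the other class III receptor tyrosine kinases, the stem cell factor receptor Kit was counted in 1.52% of the cells, the macrophage receptor Csf1r in 11.96%, and Flt3 in 0 of 460, for which the interval allows a share of up to 0.799%.

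Where one receptor was high the other tended to be low. Across the 460 cells the Spearman correlation of Pdgfra with Pdgfrb was -0.43, and it was -0.43 again in the thinned cells. It was -0.47 in the 55% of cells without transcripts of other lineages, -0.45 without the 12 cells with posterior Hox genes described below, and -0.41 given the cell total. Scaling mattered more, with -0.35 from scran size factors and -0.29 as a Pearson correlation of log2(CPM + 10). In the columns low in Sftpc described below the correlation was -0.55, and without them it was -0.38. The cell total was itself related to Pdgfrb CPM, with a correlation of -0.34, and to Pdgfra CPM with 0.13. The cells share 1 preparation as far as the labels tell, so that these coefficients are descriptions.

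Across all cells, Pdgfrb followed the mural anchors and Pdgfra the fibroblast anchors. Pdgfrb correlated at 0.77 with Notch3 and 0.72 with Mcam, and at -0.33 with Dcn and -0.26 with Col1a1. For Pdgfra the signs were the reverse, with 0.42 for Dcn and 0.45 for Col1a1 against -0.63 for Notch3 and -0.58 for Mcam. The link of Pdgfrb to Col1a1 was the weakest of these 8 and depended on scaling: it was -0.14 with scran size factors and -0.02 as a Pearson correlation of log2(CPM + 10). Both mural anchors overlap antisense genes, Gm17276 at Notch3 and Gm10687 at Mcam, which held few counts beside the 21558 of Notch3 and 42676 of Mcam.

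**Figure D2:**
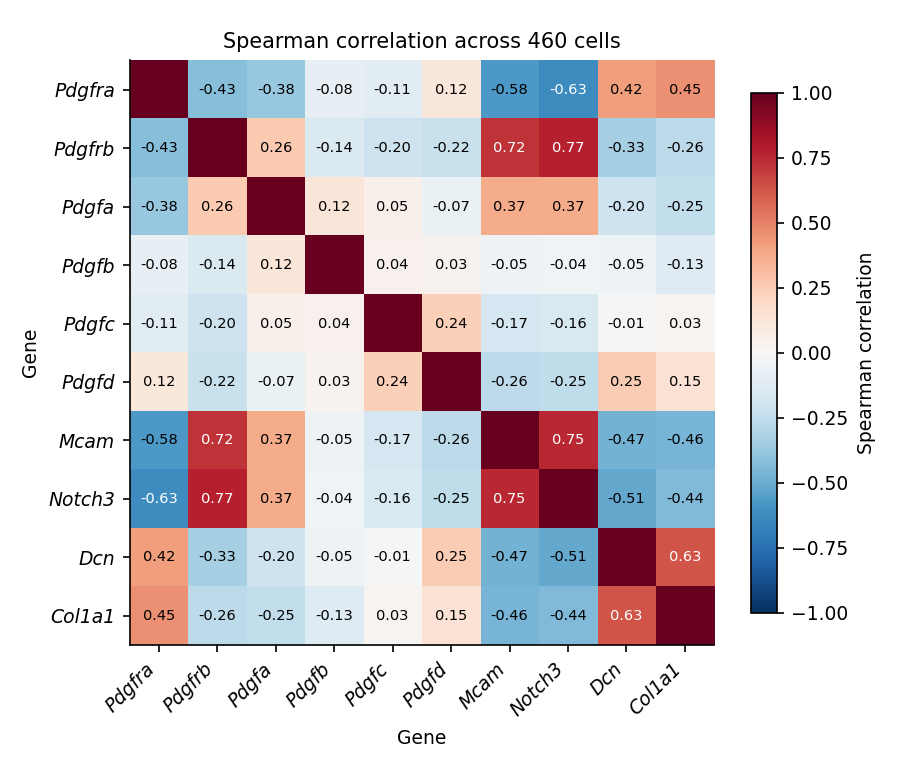
Spearman correlation across 460 cells between the 6 PDGF genes and the 4 anchor genes, red above 0 and blue below it, with the coefficient in each square. Pdgfrb pairs with Mcam and Notch3 at 0.72 and 0.77, Pdgfra pairs with Dcn and Col1a1 at 0.42 and 0.45, and every square of Pdgfb lies between -0.14 and 0.12.

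Among 5840 genes with a count in at least 50% of the thinned cells, Notch3 was the gene most like Pdgfrb. It was followed by the endothelin receptor Ednra (0.74), the guanylate cyclase subunit Gucy1b3 (0.73), the sodium-potassium-chloride cotransporter Slc12a2 (0.73), Mcam, the collagen chains Col5a3 (0.71) and Col4a2 (0.71), and the nucleotide exchange factor Arhgef17 (0.70). Least like it were the chemokine Cxcl14 (-0.57), the growth factor receptor Fgfr2 (-0.56), the mitochondrial protein gene Ndufa4 (-0.55), the actin-binding Palld (-0.54) and the non-muscle myosin Myh10 (-0.54). In all, 3.9% of these genes correlated with Pdgfrb at 0.3 or more and 2.74% at -0.3 or less.

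The genes most like Pdgfra were the mesenchymal cadherin Cdh11 (0.69), the monooxygenase Fmo2 (0.68), Cxcl14 (0.62), the Slit receptor Robo2 (0.62), the IGF-binding Igfbp4 (0.60), the lipoprotein Apoe (0.59), the TGF-beta effector Smad3 (0.59) and the scavenger receptor Colec12 (0.58). Least like it were the pericyte proteoglycan Cspg4 (-0.65), the focal adhesion gene Tns1 (-0.64), Notch3 (-0.63), the G-protein regulator Rgs4 (-0.60) and the transcription factor Ebf1 (-0.60). Here 3.84% of the genes reached 0.3 and 2.64% reached -0.3. Cxcl14 and Notch3 appear at opposite ends of these lists, Cxcl14 among the highest for Pdgfra and lowest for Pdgfrb, and Notch3 highest for Pdgfrb and among the lowest for Pdgfra.

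To read levels along this axis, the cells were ordered by an index, the log2 ratio of summed Mcam and Notch3 CPM to summed Dcn and Col1a1 CPM with 10 added to each sum, and divided into 4 ranges with equal numbers of cells. Range 1 is the fibroblast end and range 4 the mural end. The mural end was high in pericyte but not in smooth muscle markers. Median summed pericyte markers, which include both mural anchors, were 13859 CPM there and 1156 CPM at the fibroblast end. Those of smooth muscle were 803 and 858 CPM. They are ranges of a score and not cell types, and neighbouring ranges meet without a gap, at -3.70 and -3.68, at -1.491 and -1.489, and at 0.73 and 0.76 of the index. The index contains no PDGF gene, but it is built from the anchors, so that the levels below and the correlations with the anchors are 2 views of 1 relation.

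Mean Pdgfra was 1784, 1682, 945 and 307.9 CPM from range 1 to range 4. The mural-end cells ran from 9.70 to 1992 CPM with a median of 205.3 CPM, and the fibroblast-end cells from 73.5 to 4814 CPM with a median of 1774 CPM, so that the ranges overlapped at their edges but not in their middle 50%. Mean Pdgfrb was 1907, 2146, 3387 and 4326 CPM in the same order. Mural-end cells ran from 1127 to 7164 CPM of Pdgfrb with a median of 4326 CPM, and fibroblast-end cells from 168.8 to 3914 CPM with a median of 1979 CPM. The middle 50% of the cells did not overlap between the ends for Pdgfrb either, and for both receptors most of the difference lay beyond range 2.

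As ratios of mean CPM at the mural end over the fibroblast end, the log2 values were -2.53 for Pdgfra, 1.18 for Pdgfrb and 2.13 for Pdgfa. Those of Pdgfc and Pdgfd were -3.33 and -3.52. Of the 5 PDGF genes with a mean of at least 1 count per cell at either end, 2 were thus at least 2-fold higher at the mural end and 3 at least 2-fold lower, Pdgfc and Pdgfd meeting that minimum through the fibroblast end alone. With an index of Dcn and Col1a1 only, the log2 ratio of Pdgfrb was 0.58 and that of Pdgfc -0.33, so that neither reached 2-fold, and in the columns low in Sftpc described below that of Pdgfc was -0.57. Of all 10118 genes with that minimum, 6.54% were 2-fold or more higher, 11.2% 2-fold or more lower and 17.8% either. Pdgfb did not reach the minimum, with 3.18 CPM at the mural end and 1.69 CPM at the fibroblast end.

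**Figure D3:**
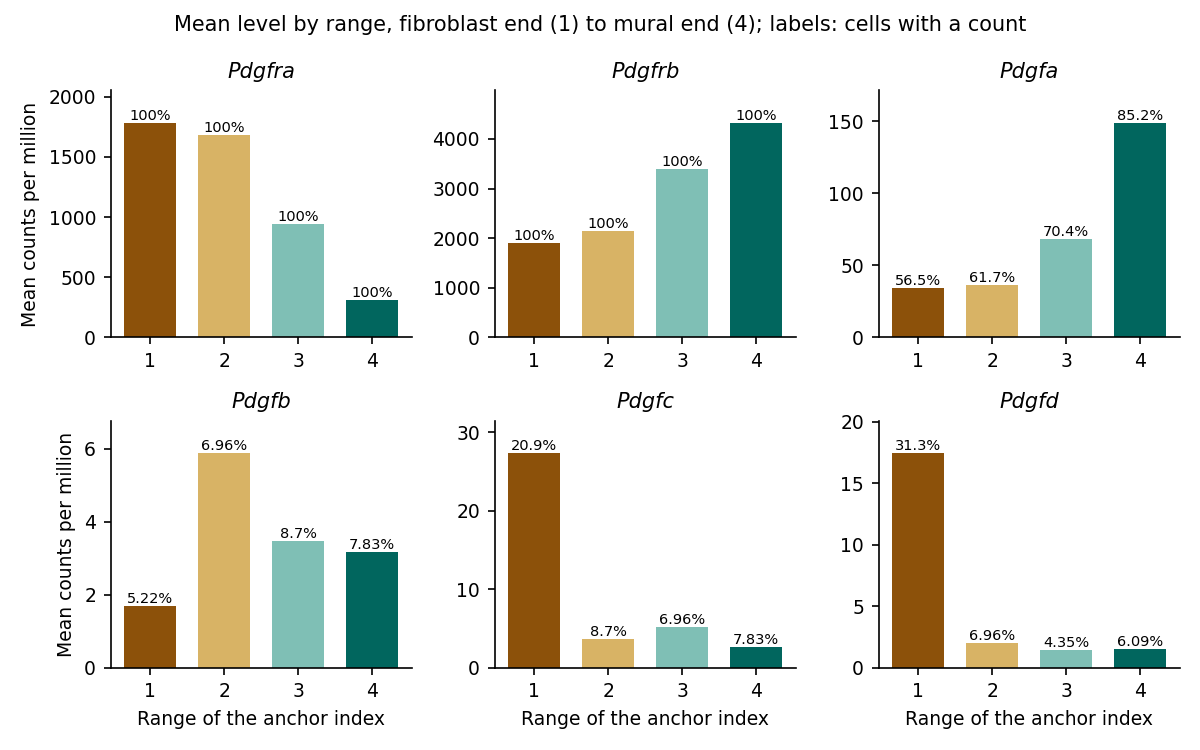
Mean CPM of each PDGF gene in 4 ranges of equal cell number along the anchor index, from the fibroblast end (1) to the mural end (4), with the share of cells that had a count above each bar; each panel has its own vertical scale from 0. Pdgfra is lower and Pdgfrb and Pdgfa are higher towards range 4, while Pdgfc and Pdgfd stand out in range 1 with 20.9% and 31.3% of cells.

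The sum of both receptors varied less along the index than their balance did. Values here were not divided by exon length, which was 10024 bases for Pdgfra and 5478 for Pdgfrb. The Pdgfra shares would be lower after such a division. The median of summed receptor CPM was 3595, 3829, 4451 and 4586 CPM from range 1 to range 4. The median share of Pdgfra in that sum was 46.8%, 44.9%, 17.7% and 5.13%. More Pdgfra than Pdgfrb counts were found in 22.4% of the 460 cells (interval 18.7 to 26.5%). From range 1 to range 4 these were 41.7%, 37.4%, 10.4% and 0% of the cells, the last with an upper limit of 3.16%. Over all cells the Pdgfra share had no single peak: 28.9% of the cells lay below 10%, 42 cells between 20 and 30%, and 70 cells between 40 and 50%.

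The opposition of the receptors held over the whole index but not inside its fibroblast end. Within range 1 the correlation of Pdgfra with Pdgfrb was 0.49, and it was 0.15, -0.36 and -0.0005 in ranges 2, 3 and 4. The value in range 1 was 0.44 after thinning, 0.54 without the columns low in Sftpc described below, and 0.31 in the 65 of its cells without transcripts of other lineages. With ranges made from Mcam and Notch3 alone, chosen after seeing these values, the 4 coefficients were 0.59, 0.23, -0.32 and -0.03. With ranges made from Dcn and Col1a1 alone they were 0.28, -0.31, -0.56 and -0.36. Without cells with transcripts of other lineages, range 1 of these 2 indices had 0.39 and 0.15, in this order. The positive sign at the fibroblast end was thus kept, while its size and the values of the other ranges depended on the anchors used. Pdgfrb and Notch3 stayed positive in every range of all 3 indices, between 0.15 and 0.78.

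Inside the ranges, the correlations with Col1a1 and Dcn differed from those over all cells. Pdgfrb with Col1a1, at -0.26 over all cells, was 0.43, 0.39, 0.51 and 0.11 in ranges 1 to 4. The index contains Col1a1 and Dcn, so that dividing the cells by it can itself alter these coefficients. With ranges made from Mcam and Notch3 alone it was 0.49, 0.32, -0.08 and 0.03. With ranges made from Dcn and Col1a1 alone it was 0.27, -0.06, -0.14 and 0.14. It was thus positive in range 1 and range 4 of all 3 indices and changed sign between them in ranges 2 and 3. Without cells with transcripts of other lineages it stayed positive in range 1, at 0.36, 0.42 and 0.30 for the 3 indices in this order. In range 4 it was then -0.06, 0.009 and -0.12, so that the positive sign there was not kept. Pdgfra with Dcn, at 0.42 over all cells, was 0.22, -0.11, -0.08 and 0.008 in ranges 1 to 4. With ranges made from Mcam and Notch3 alone it was 0.22, 0.02, 0.28 and 0.09, lower in each than over all cells.

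**Figure D4:**
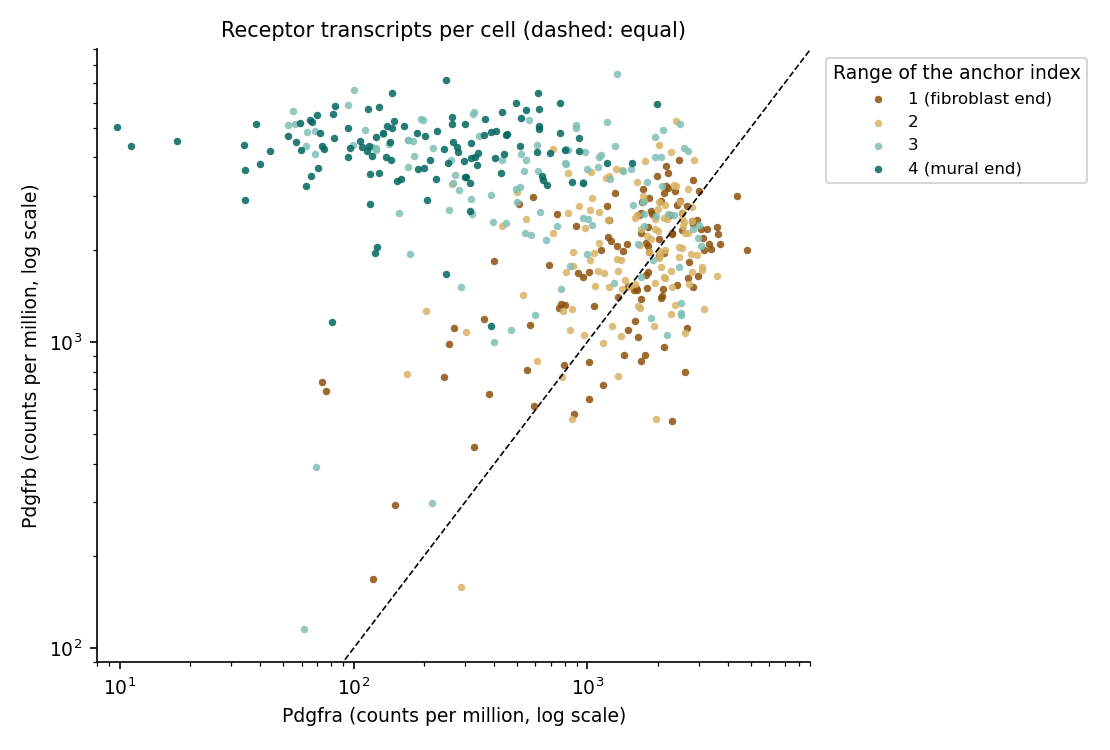
Pdgfra against Pdgfrb in each of 460 cells, both in CPM on logarithmic axes. Colour gives the range of the anchor index from the fibroblast end (1) to the mural end (4). The dashed line marks equal CPM, not divided by exon length. Mural-end cells form a band above the line with none below it, and fibroblast-end cells gather around the line and run along it, with a correlation of 0.49.

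The receptors were also compared inside clusters built with the 6 genes left out. Within the 4 larger clusters, which held 28.9%, 28.3%, 26.1% and 14.3% of the cells, the correlation of the receptors was 0.28, -0.0016, -0.07 and -0.11. Without cells with transcripts of other lineages it was 0.14, 0.05, 0.09 and 0.21. None of these clusters had a correlation as negative as that over all cells or inside range 3 of the index. The clusters are called by number, because clusters 3 and 4 led with epithelial and immune genes (Hc, Slc26a9 and Gkn2, and Atp6v0d2, Tyrobp and Ccl6) on top of pericyte genes. Mean Pdgfra was 1570, 1898, 532 and 181.1 CPM in clusters 1 to 4 and mean Pdgfrb 2297, 2095, 3959 and 4289 CPM, and more Pdgfra than Pdgfrb was counted in 27.1%, 46.2%, 3.33% and 0% of their cells. Cluster 1 led with the fibroblast genes Itgbl1, Mmp3 and Dpt, and cluster 2 with Moxd1 and the cycling genes Top2a and Mki67. Only 13 of the 460 cells, or 2.83%, had counts of at least 4 of 6 cycling markers. Most of the 130 cells of cluster 2 were thus not cycling by that measure.

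Pdgfa, whose product acts mainly through receptor alpha, was the only ligand counted in most cells. It had a count in 68.5% of the 460 cells (interval 64.02 to 72.7%), and in 63.5% of the thinned cells. Values ran from 0 to 878 CPM with a median of 26.6 CPM. From range 1 to range 4 its mean was 34.01, 36.1, 68.04 and 148.98 CPM, and it was counted in 56.5%, 61.7%, 70.4% and 85.2% of the cells. The median was 106.1 CPM in mural-end cells and 10.8 CPM in fibroblast-end cells, while both ends held cells at 0 and cells far above them, up to 838 CPM at the mural end and 528 CPM at the fibroblast end.

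Pdgfa was therefore higher in cells with less of its receptor. Its correlation was -0.38 with Pdgfra and 0.26 with Pdgfrb, and 0.37 each with Mcam and Notch3. The genes most like it were the protocadherin Pcdh1 (0.43), Cspg4 (0.42), Mcam, Notch3 and Ebf1 (0.37), and 0.497% of the ranked genes reached 0.3 and 0.377% reached -0.3. Within the 4 ranges the correlation with Pdgfra was weaker, at -0.18, -0.11, -0.19 and -0.21. How much weaker depended on the anchors. With ranges made from Mcam and Notch3 alone it was -0.17, -0.24, -0.04 and -0.20. With ranges made from Dcn and Col1a1 alone it was -0.21, -0.31, -0.30 and -0.33, closer to the value over all cells. The median summed pericyte level was 3052 CPM in cells with a Pdgfa count and 1579 CPM in cells without one, whereas the endothelial medians were 14.9 and 14.3 CPM and the epithelial medians 556 and 546 CPM. Whether counts of its antisense neighbour entered its values was not tested.

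Pdgfb, the endothelial ligand of pericytes, was near background. It was counted in 33 of 460 cells, or 7.17% (interval 4.99 to 9.93%), between the shares of Epcam and Ptprc, and this share is not read as expression by the labelled cells. The 10 cells with the most counts held 78.1% of its counts. A single cell in range 2 of the index held 69 of them, with counts of 8 of the 8 endothelial markers summing to 4229 CPM. Of the 9 cells with at least 5 endothelial markers, a limit set after seeing the values, 5 had a Pdgfb count, or 55.6% (21.2 to 86.3%), and together they held 42.3% of its counts. In the 55% of cells without transcripts of other lineages, a set not filtered for epithelial genes, Pdgfb was counted in 4.35% (2.19 to 7.65%) at a level of 1.49 CPM.

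The other cells with many Pdgfb counts were mixed in the markers they carried. Of the 10 cells with the most counts, 1 further cell had 8 endothelial markers, at 4957 CPM, and with them 6090 CPM of immune markers. Another had 5265 CPM of immune markers, and 3 had between 11847 and 12273 CPM of epithelial markers. The cell with the second highest Pdgfb level, 138.3 CPM, had 17453 CPM of smooth muscle markers, with 46.1 CPM of immune and 646 CPM of epithelial markers. Of 5 platelet markers, Ppbp and Gp9 had 0 counts in all cells, whereas Pf4 was counted in 4.57% of the cells. Their summed level had a median of 0 and a highest value of 279.4 CPM, in 1 of the 10 cells with the most Pdgfb counts. Pdgfb had no gene like it, the highest correlation being 0.23, with the alveolar epithelial gene Ager. Cells with a Pdgfb count were also deeper, with a median total of 109019 counts against 87121 in cells without one.

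Pdgfc, a ligand that is secreted with an inhibitory domain and needs cleavage, was concentrated in very few cells. It was counted in 51 cells, or 11.1% (interval 8.37 to 14.3%), the share of Ptprc and Cdh5, so that the overall share is not read as expression. The 55% of cells without transcripts of other lineages held 35.9% of its counts, with a count in 8.30% of them (5.21 to 12.4%). Yet 12 cells, selected only by at least 200 CPM of summed Hox genes of paralog groups 9 to 13, held 64.7% of its counts. Posterior Hox genes mark cells from the rear part of the body axis, and lung mesenchyme is known for Hox genes of paralog groups with lower numbers. The lowest of the 12 cells had 378.5 CPM of these 16 Hox genes and the highest of the other cells 187.7 CPM.

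All 12 of those cells had Pdgfc counts, against 39, or 8.71%, of the other cells (interval 6.26 to 11.7%). Pdgfc in the 12 cells was 42.7, 97.1, 117.9, 156.5, 194.4, 194.9, 225.05, 302.1, 328.7, 351.1, 446.9 and 662 CPM, from counts of 8 to 62 per cell. In the other cells it ran from 0 to 173.7 CPM with a median of 0. Every Hox cell thus lay above the median of the rest and 8 of the 12 lay above the highest of the rest, at a similar median depth of 90054 counts in the Hox cells and 88701 in the others. Mean Pdgfc was 260 CPM in the Hox cells and 3.04 CPM in the others.

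The same cells held the transcription factor gene Hand2 at a mean of 605 CPM, against 0.725 CPM in the other cells, and 96.1% of all Hand2 counts. Their Pdgfra averaged 942 CPM against 1186 CPM in the others, and their Pdgfrb 1462 CPM against 2981 CPM. Of the 12 cells, 9 lay in range 1 of the index, 1 in range 2 and 2 in range 3. Cluster 5, which contained 11 cells and led with Hand2, Hoxa10, A2m, Dio2 and Rorb, consisted of 11 of the 12. The next genes on its list were Hoxd11, Slc6a2, Cntn3, Zfp804a and Pgr. The labels do not say from which tissue or animal single cells came.

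**Figure D5:**
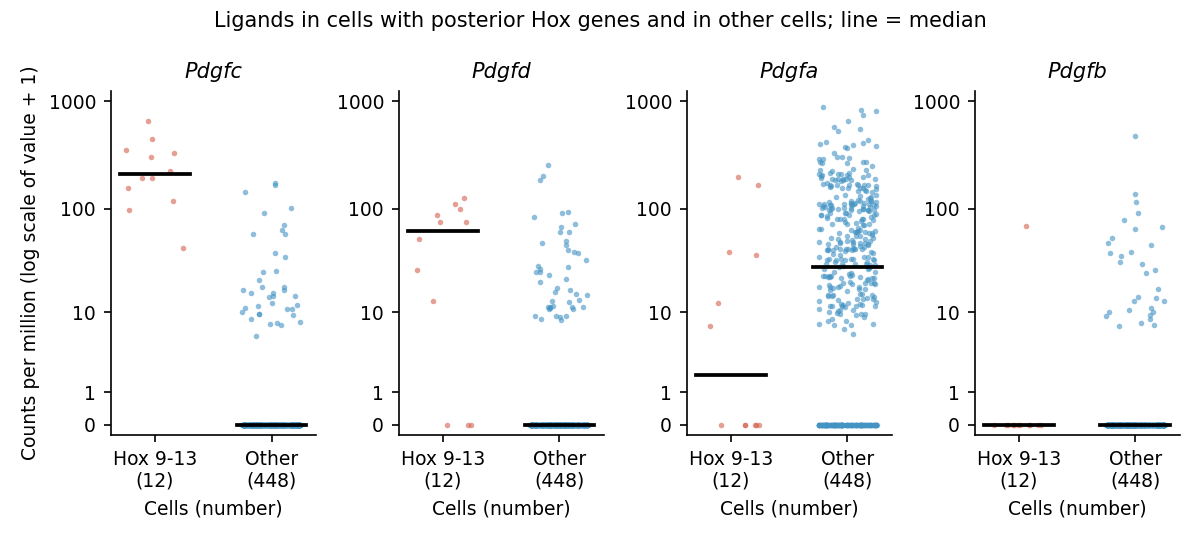
CPM of the 4 ligands, on a logarithmic scale of the value plus 1, in the 12 cells with posterior Hox genes (Hox 9-13, left in each panel) and the other cells (right); each point is a cell and the line is the median. All 12 Hox cells have Pdgfc, with a median of 210 CPM, and 9 have Pdgfd, while Pdgfa and Pdgfb are not concentrated there.

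Without the 12 Hox cells, Pdgfc was at 3.91 CPM over the remaining cells, and its log2 ratio of the mural end over the fibroblast end was -1.18 in place of -3.33. The fibroblast-end level of Pdgfc therefore rested mostly on these cells. No gene was like Pdgfc among the ranked genes, the highest correlation being 0.23, with Npc2.

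Pdgfd, a ligand of receptor beta that also needs cleavage, was highest at the fibroblast end. Without the Hox cells it correlated at 0.29 with Dcn, 0.14 with Col1a1, -0.22 with Mcam and -0.20 with Notch3. It was counted in 56 cells, or 12.2% (interval 9.33 to 15.5%), close to the share of Cdh5, and the highest count was 15. From range 1 to range 4 it was counted in 31.3%, 6.96%, 4.35% and 6.09% of the cells, with means of 17.5, 2.04, 1.42 and 1.53 CPM. The fibroblast-end share had an interval of 22.98 to 40.6%, above those of the other 3 ranges, and it was 28.97% after thinning. Over the same ranges the endothelial gene Cdh5 was counted in 13.9%, 10.4%, 8.70% and 13.04% of the cells and Ptprc in 11.3%, 5.22%, 13.04% and 15.7%, so that these 2 background genes did not follow that order. The 5 mesothelial markers did differ between the ends, with a median sum of 30.4 CPM at the fibroblast end and 0 at the mural end. In cells with Pdgfd that median was 33.2 CPM, against 0 in cells without it. The 55% of cells without transcripts of other lineages held 28.75% of the Pdgfd counts, with a count in 9.49% of them (interval 6.17 to 13.8%). The part of mesothelial, endothelial or immune transcripts in the Pdgfd values was not tested.

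In the Hox cells Pdgfd was counted in 9 of 12, or 75% (42.8 to 94.5%), and in 47 of the others, or 10.5% (7.81 to 13.7%). These 12 cells held 25.8% of its counts. Over all cells its highest correlation with an anchor was 0.25, with Dcn, the 11th highest of the 5840 ranked genes. The genes most like Pdgfd were the TGF-beta co-receptor Tgfbr3 (0.31), the secreted Gas6 (0.30), Tmtc1 (0.30), Islr (0.29) and Pcdh7 (0.29), all weak in a gene with so few counts. The median summed fibroblast level was 10961 CPM in cells with Pdgfd and 6220 CPM in cells without it.

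Most cells thus held transcripts of 1 ligand or of none, besides both receptors. No ligand was counted in 24.3% of the cells, 1 in 56.1%, 2 in 16.3%, 3 in 13 cells and all 4 in 2 cells. Pdgfd was counted in 31.4% of the 51 cells with Pdgfc (interval 19.1 to 45.9%), against 9.78% of the cells without Pdgfc (7.08 to 13.1%). Outside the Hox cells this was 7 of 39 cells, or 17.9% (7.54 to 33.5%), an interval that contains 9.78%. Pdgfa was counted in 90.9% of the 33 cells with Pdgfb (75.7 to 98.1%), against 66.7% of those without (62.1 to 71.2%), and the cells with Pdgfb were the deeper ones.

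The sparse ligands also differed along the table. In 27.6% of the columns the surfactant gene Sftpc, a transcript of alveolar epithelium, was low (over 50% of the 20 nearest columns under 30 CPM). The labels give no batch that would name these columns, and their median total was 76488 counts against 92997 in the other columns. Pdgfb was counted in 2 of these columns, or 1.57% (interval 0.191 to 5.57%), against 31 of the others, or 9.31% (6.41 to 12.95%). After thinning, these were 0 cells, for which the interval allows up to 3.42%, against 28 cells, or 9.09%. Pdgfc was counted in 3.15% against 14.1% and Pdgfd in 4.72% against 15.02%.

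The abundant members had like values in both sets of columns. Pdgfa was counted in 66.9% of the columns low in Sftpc and 69.1% of the others. Mean Pdgfra was 1146 CPM in those columns against 1193 CPM in the others, and mean Pdgfrb 3194 CPM against 2845 CPM. More Pdgfra than Pdgfrb was counted in 22.05% of the columns low in Sftpc and in 22.5% of the cells without them. The part of the columns in the values of Pdgfb, Pdgfc and Pdgfd was not tested.

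Beyond the 6 genes, 51 genes of the PDGF pathway were followed in 5 lists. Of these, 49 reached the minimum of 1 count per cell at an end of the index, 6 were at least 2-fold higher at the mural end and 6 at least 2-fold lower. Among the lower ones, A2m met the minimum through the fibroblast end alone, and Plau lay near the minimum at the mural end. The median log2 ratio of the 49 was 0.04, as it was over all 10118 genes, of which 6.54% were 2-fold or more higher and 11.2% lower. Each of the 5 lists held at least 1 gene past 2-fold.

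Of 7 genes for ligand processing, 5 reached the minimum, none was 2-fold higher at the mural end and 2 were 2-fold lower. The tissue plasminogen activator Plat, which cleaves PDGF-C, was the most abundant with 873 CPM over all cells, followed by the convertases Furin with 310 CPM and Pcsk5 with 102.5 CPM. Pcsk5 had 26.4 CPM at the mural end and 253.5 CPM at the fibroblast end, and the urokinase gene Plau, whose product cleaves PDGF-D, had 10.4 CPM and 39.1 CPM. Plau correlated at 0.26 with Pdgfra and -0.23 with Pdgfrb.

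Of 7 genes for ligand binding and co-receptors, 1 was 2-fold higher at the mural end and 2 lower. The matrix protein Sparc (2612 CPM), the endocytic receptor Lrp1 (2314 CPM) and the co-receptor Nrp1 (718 CPM) were the most abundant and were within 2-fold between the ends. Cspg4, a proteoglycan that binds PDGF-A, had 739 CPM at the mural end and 54.3 CPM at the fibroblast end, and Pdgfrl, a receptor-like gene without a kinase, 23.2 CPM and 106.1 CPM. Cspg4 correlated at 0.66 with Pdgfrb and -0.65 with Pdgfra, and Pdgfrl at -0.20 and 0.39. The other gene that was lower, the protease inhibitor A2m, was among the leading genes of cluster 5 and was counted in 10.4% of all cells. It had 1.19 CPM at the mural end and 68.7 CPM at the fibroblast end, the only end where it met the minimum.

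Of 21 adaptors and kinases, 4 were 2-fold higher at the mural end and none lower. The kinase Src had 366.96 CPM at the mural end and 123.5 CPM at the fibroblast end, and the adaptor Nck2 175.3 CPM and 51.7 CPM. Gab1, a docking protein, had 328.2 CPM and 130.8 CPM, and Slc9a3r2, a scaffold that binds receptor tails, 168.8 CPM and 76.8 CPM. Src correlated at 0.50 with Pdgfrb and -0.47 with Pdgfra, and Nck2 at 0.46 and -0.33. The most abundant of this list were Shc1 (345.8 CPM), the kinase subunit Pik3r1 (316.4 CPM) and Stat3 (268.8 CPM), each within 2-fold between the ends.

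Of 7 phosphatases and ubiquitin ligases 1 was 2-fold lower at the mural end, the receptor phosphatase Ptprj with 33.2 CPM against 78.2 CPM. The ubiquitin ligases Cbl (328.4 CPM over all cells) and Cblb (118.9 CPM) and the phosphatases Ptpn12 (251.2 CPM) and Ptpn1 (241.4 CPM) were within 2-fold. Cbl and Cblb had opposite signs, with correlations of 0.29 and -0.12 with Pdgfrb and -0.23 and 0.26 with Pdgfra. Of 9 early targets and feedback genes, 1 was higher and 1 lower. Rgs5, a regulator of G-protein signalling that is also a pericyte marker, had 5577 CPM at the mural end and 410.97 CPM at the fibroblast end, and the feedback inhibitor Spry1 had 285.5 CPM and 616 CPM. Spry1 correlated at 0.52 with Pdgfra, and the early genes Fos (2110 CPM over all cells) and Egr1 (1256 CPM) were within 2-fold between the ends.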

How the data were processed

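The authors deposited 1 table of molecular barcode counts per gene and cell. STAR, HTSeq and the mm10 build are listed, without versions, in the submitters' processing notes. Repeated symbols were 119 and were left out of tables over all genes, and no member was among them. CPM are counts over the cell's total (25029 to 240496), and for a gene over all cells, summed counts over summed totals. Shares have Clopper-Pearson and levels Poisson intervals at 95%. Clusters came from scanpy 1.11.5 (2000 variable genes, 20 components, 15 neighbours, resolution 0.5), without the 6 genes, and size factors from scran 1.30.0. No doublet caller was run; one alternative dropped the deepest 5% of cells. Pdgfb, Pdgfc and Pdgfd had 215, 459 and 240 counts in all; 414 cells remained after thinning, each index range held 115 cells, and 127 columns were low in Sftpc. Fold and correlation code was tested on simulated data. Always named were the 6 genes and 4 anchors; for likeness, the 8 highest and 5 lowest correlations of each receptor and the 5 highest of each ligand, leaving out unnamed, ribosomal and mitochondrial genes; in each pathway list, the 3 highest CPM and the 2 whose correlations with the receptors differ most. Genes named beside these were chosen after their values were seen. The genes, lists and column split were chosen with earlier results of these data known. The genotype of the strain is not reported here.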

Additional observations from a re-analysis of the deposited data

How the results depend on the processing

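Of the values that answer the comparisons, 23 moved past the tolerance under an alternative and the rest stayed within it. The tolerance was 0.1 for correlations and 1.5-fold for ratios. Among the other values 31 moved. No correlation beyond 0.2 over all cells and no ratio of 2-fold or more with the index of all 4 anchors changed sign. The ratio of Pdgfb, under 2-fold with that index, did change sign, as given below. Inside ranges 2 and 3 the sign of Pdgfrb with Col1a1 changed with the index, as given above. Inside range 4 it changed without cells with transcripts of other lineages. The correlation of Pdgfra with Pdgfrb was -0.55 in the columns low in Sftpc alone and -0.29 as a Pearson correlation. That of Pdgfrb with Col1a1 was -0.37 without cells with transcripts of other lineages, -0.024 as a Pearson correlation and -0.14 with scran size factors. Inside the fibroblast end, Pdgfra with Pdgfrb was 0.31 without cells with transcripts of other lineages and 0.28 with an index of Dcn and Col1a1 only; inside the mural end it was -0.36 with that index. With that index the log2 ratios of the mural end over the fibroblast end were -1.40 for Pdgfra, 0.58 for Pdgfrb, 2.29 for Pdgfb, -0.33 for Pdgfc and -2.49 for Pdgfd. With an index of Mcam and Notch3 only they were -2.08 for Pdgfb, -4.51 for Pdgfc and -4.99 for Pdgfd. Without cells with transcripts of other lineages they were -4.50 for Pdgfc and -4.45 for Pdgfd. Pdgfb was at 0.12 without the 5% of cells with the most counts. Pdgfc was at -2.55 after thinning, -1.18 without the Hox cells and -0.57 in the columns low in Sftpc alone, and Pdgfd at -2.75 from summed counts. The cause of these moves was not tested, beyond the Hox cells holding most Pdgfc counts. No paired analysis was possible because the labels give 1 group. Depth limits Pdgfb, Pdgfc and Pdgfd and the ratio of Pdgfb has no stable direction. In the columns low in Sftpc alone, no finite ratio of Pdgfb or Pdgfd could be given, since their mean was 0 at an end.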
